A study of Mus musculus with 26 samples.

Results

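Potassium channel genes were followed through 26 RNA-seq libraries from the accumbens nucleus of Drd2-TRAP mice, which make it possible to compare RNA on the polysomes of dopamine D2 receptor neurons with the RNA of the whole tissue. The members are the genes whose symbol starts with Kcn and that had 10 or more counts in at least 3 of the 26 libraries. Of 98 such symbols in the count tables, 77 met this rule and 21 did not, among 31735 genes listed for every library. The 77 hold 35 of 40 pore-forming subunits of voltage-gated channels, 12 of 15 inward rectifiers, 8 of 14 tandem-pore leak channels, all 8 channels of the calcium- and sodium-activated families, 12 of 17 auxiliary subunits or regulators and 2 of 4 noncoding or antisense RNAs.

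Every animal was an adult mouse of line CP101, in which the Drd2 promoter drives the ribosomal protein L10a fused to EGFP, on an FVB/N-Swiss Webster background bred to C57BL/6 for at least 9 generations. Tagged polysomes were pulled down with antibodies against EGFP, and 24 libraries were made from this immunopurified RNA. By their titles they come from 8 nonescalating withdrawal, 6 saline withdrawal, 2 escalating, 5 nonescalating and 3 saline samples, and 2 further libraries, 1 nonescalating and 1 saline, hold input RNA of the whole tissue. The escalating and nonescalating mice took cocaine intravenously, in long sessions of self-administration, and the saline mice took saline in the same way. The age in weeks, the dose and the length of withdrawal are not given in the labels. A second label on the 5 nonescalating libraries carries the word withdrawal although their titles do not, and the titles were followed. Library numbers fall into 2 runs, called set 1 and set 2 here, and only the 2 withdrawal groups have libraries in set 2 (5 nonescalating withdrawal and 3 saline withdrawal). The Drd2 promoter is also active in cholinergic interneurons, so the tag is not restricted to medium spiny neurons. The labels do not say whether each library is a separate animal, so the tests measure the spread between libraries. Values of single libraries are given in the order of their replicate numbers.

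Potassium channels let potassium leave the cell and so hold or return the membrane potential to rest. Medium spiny neurons are known for a strongly hyperpolarized resting state held by inward rectifiers, for a slowly inactivating and a fast transient voltage-gated current that delay the first spike, and for an M-current, carried by channels of the Kcnq family, that muscarinic receptors close. Calcium-activated channels shape the pause after each spike, and leak channels set the input resistance. Auxiliary subunits bind the pore-forming subunits and change how many channels reach the membrane and how fast they inactivate.

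The feature that defines the family is the selectivity filter, which most pore-forming subunits build from a short signature of 5 codons: threonine or serine, then valine, isoleucine or leucine, then glycine, then tyrosine, phenylalanine or leucine, then glycine. This pattern was searched in the longest coding sequence of each gene in GENCODE M21 (GRCm38, the build called mm10). It was present in 63 of the 75 coding members, namely in all 35 voltage-gated subunits, all 12 inward rectifiers, all 8 activated channels and all 8 leak channels, and in none of the 12 auxiliary subunits or regulators. Of the 8 leak channels, whose subunits hold a tandem pair of pores, 7 carried it 2 times. Among 21482 genes with a complete coding sequence, 290 carried the pattern, or 1.35%. The filter codons of 4 members on which the results turn are shown with 6 bases on each side, 5′ to 3′ on the coding strand, and the capitals mark the 15 bases of the signature.
Kcna1: atgaccACTGTGGGATACGGTgacatg
Kcna6: atgaccACGGTAGGTTATGGGgacatg
Kcnj8: caagtgACCATTGGGTTTGGAgggaga
Kcnk9: atcacaACTATCGGATATGGAcatgct

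All 4 windows are coding sequence on the minus strand. They lie at chr6:126642222-126642248 for Kcna1, chr6:126738641-126738667 for Kcna6 and chr6:142566442-142566468 for Kcnj8, and that of Kcnk9, which is split by an intron, lies within chr15:72513031-72546009. Kcna1 and Kcna6, neighbours on chromosome 6, shared 10 of the 15 signature bases and 22 of the 27 bases shown. The window of Kcnj8 was the least like that of Kcna1 among the 4, with 10 of 27 bases identical. These stretches are short, and how reads of near-identical members were assigned is not stated for these counts.

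Counts in genes ran from 1.54 M to 17.5 M per immunopurified library (median 3.27 M; M stands for 1000000), and were 37.5 M in the nonescalating input and 4.70 M in the saline input. The potassium channel genes took 0.328% to 0.659% of the counts of an immunopurified library. The D2 label was checked with 6 markers of these neurons (Drd2, Adora2a, Penk, Gpr6, Gpr52 and Sp9). Their summed level was 659 to 9264 CPM (counts per 1000000 counts in genes, scaled with TMM factors) in the 8 immunopurified libraries of the nonescalating and saline groups, against 1604 and 1157 CPM in the nonescalating and saline inputs. All 6 had a fold change above 0 (median log2 fold change 1.74), 3 of them with an unadjusted p under 0.05, and 0 passed the adjusted test. Markers of pericytes and smooth muscle (median 4.67) and of endothelium (median 4.16) lay further above input than these. The 4 markers of cholinergic interneurons all had a fold change below 0 (median -1.96), as did 6 markers of D1 receptor neurons (median -2.11). The library at 659 CPM is nonescalating replicate 4, which also had the lowest level of 14 of the 38 potassium channel genes with a mean of at least 20 CPM. Saline replicate 1 was the lowest for 8 more of them. Counts without these libraries are given where they differ by over 1.5 times. In polysome RNA, fewer cells with a transcript and less transcript per cell cannot be told apart.

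Levels of different genes were compared only as CPM per kilobase of exon. On this scale the members ran from 86.2 ± 31.8 for Kcna1 to 0.116 ± 0.215 for Kcns3 (mean ± SD over 24 immunopurified libraries). Kcna1, a low-threshold voltage-gated subunit found in axons, was followed by Kcnip3 at 82.0 ± 24.2 and Kcnip2 at 43.5 ± 15.8. Both encode calcium-binding proteins that attach to the Kcnd channels of the fast transient current. Kcna2, the usual partner of Kcna1, stood at 31.0 ± 10.6. The values of Kcna1 and Kcnip3 differed by less than their SD.

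Lower down, 4 genes were close together. Kcnj4, a strong inward rectifier, stood at 24.8 ± 15.3 CPM per kilobase, Kcna4, a subunit of transient currents, at 24.6 ± 10.6, Kcnk2, a leak channel opened by stretch and lipids, at 24.4 ± 12.1, and Kcnab2, a cytoplasmic beta subunit of Kcna channels, at 22.7 ± 8.72. Kcnd2, the pore of the transient current, was 12th at 22.1 ± 7.55, and Kcnj2, the other strong inward rectifier of these neurons, was 14th at 16.7 ± 5.67. The 4 genes differed from each other by less than their SD, so their order is not fixed by these data. The inputs gave a similar picture for most of these genes, with 80.8 CPM per kilobase for Kcna1 and 42.5 for Kcnip2. They were lower for Kcnip3 (53.6), Kcnj4 (12.3), Kcnk2 (14.1) and Kcnj2 (11.95). Kcna6 went the other way, with 35.5 in the inputs and 9.51 in the immunopurified libraries.

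**Figure D1:**
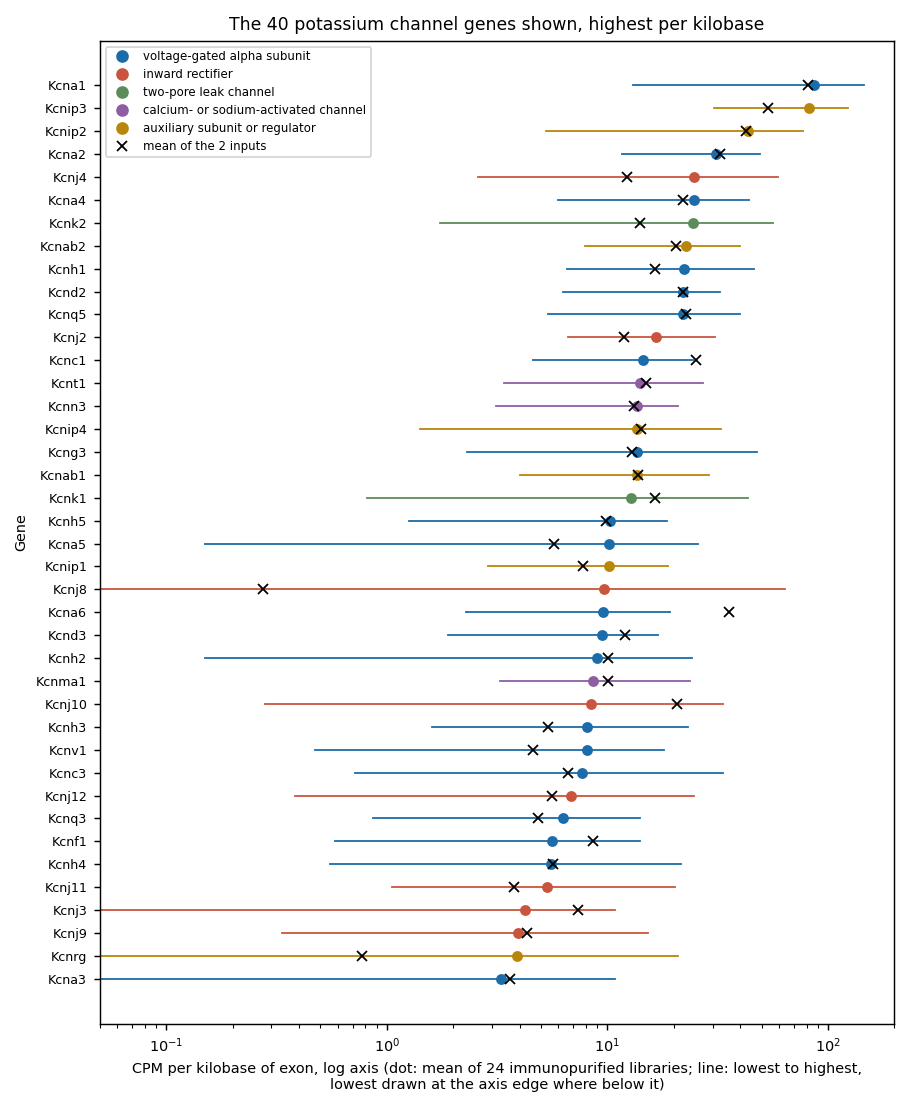
Levels of 40 potassium channel genes, ordered by their level per kilobase of exon (log axis, CPM per kilobase). Dots are means of 24 immunopurified libraries, lines run from the lowest to the highest library, and crosses are means of the 2 inputs; most crosses lie within the line of their gene, and those of Kcna6 and Kcnc1 lie to its right.

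Depth limits the lower end of this order. A count was found in all 24 immunopurified libraries for 42 members, in 12 to 23 libraries for 27, and in fewer than 12 for 8. The 18 members with a mean of at least 100 CPM had a median coefficient of variation of 0.377 between libraries, the 39 with a mean under 20 CPM one of 1.39. For 4 members, Kcnq1, Kcne1l, Kcnk4 and Kcns1, over 50% of the summed level came from 1 library. In a shallow library 3 counts are worth up to 1.96 CPM, so values of a few CPM rest on few reads. At the edge of the rule, Kcns1 and Kcnk4 had 10 or more counts in 3 libraries and were kept, and Kcnv2, Kcnh8, Kcnj15 and Kcnk12 had them in 2 and were not.

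**Figure D2:**
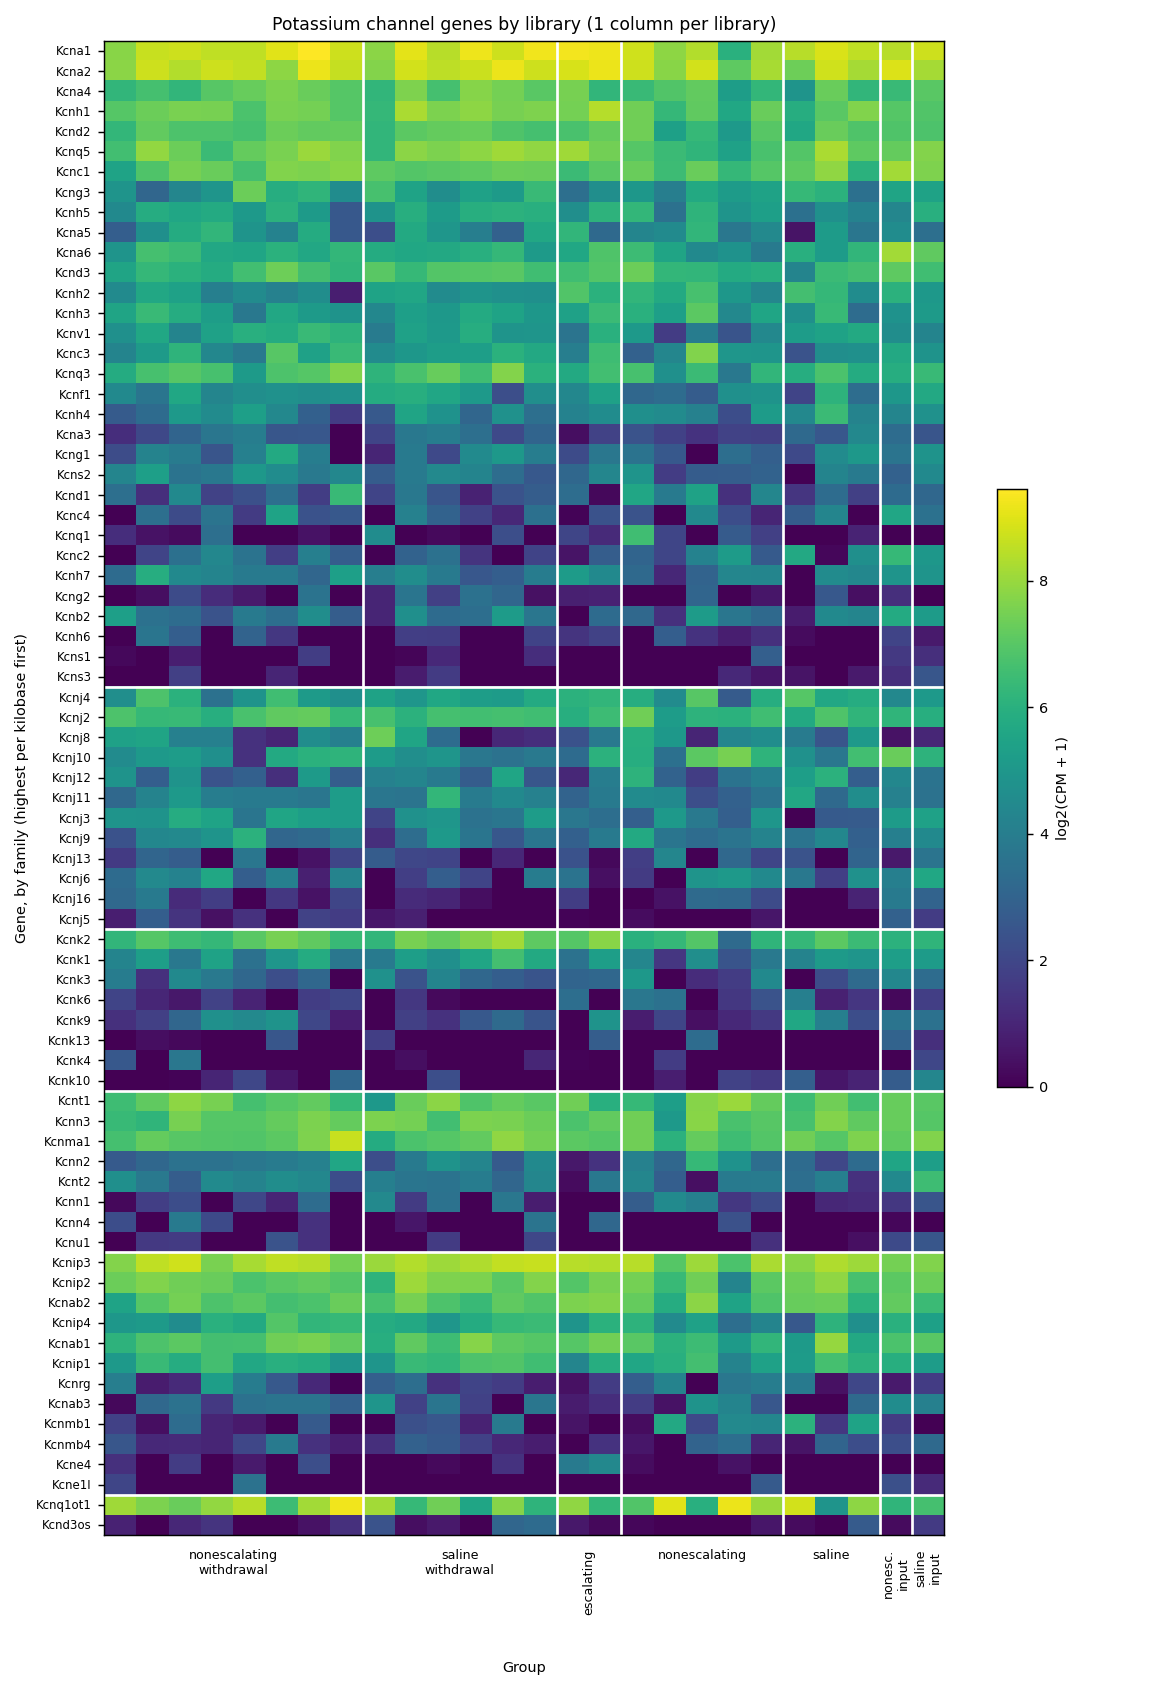
Level of 74 of the 77 members (rows, by family and highest per kilobase first) in each library (columns, by group), as log2(CPM + 1). The upper rows of each family are filled in nearly every library, and the lower rows hold many libraries at 0 beside single high ones, such as Kcnq1 at 92.8 CPM in 1 nonescalating library.

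The comparison of polysome RNA with input asks which potassium channel transcripts are richer on D2 polysomes than in the tissue around them. Kcna6, a delayed-rectifier subunit, lay below both inputs in each of the 24 immunopurified libraries. Kcnj8 and Kcnmb1, channel genes of vascular muscle, lay above both inputs in 7 and 6 of the 8 libraries tested. Kcnip3, Kcnj4 and Kcnq1ot1 also did so in 6 of the 8. The share of all genes above both inputs in 6 or 7 of the 8 was not counted. The genes of highest level, Kcna1, Kcnip3 and Kcnip2, had log2 fold changes between -0.23 and 0.41. The comparison set the 5 nonescalating and 3 saline immunopurified libraries against the 2 inputs with agent as a term, and 70 of the 77 members passed its filter on low counts. No potassium channel gene passed an adjusted p of 0.05 by edgeR's quasi-likelihood test and Benjamini-Hochberg adjustment, and 38 of 14929 genes did (0.255%). At an unadjusted p under 0.05, 3 members lay higher and 3 lower, against 6.05% and 2.22% of all genes, so the members' counts lie near this background. DESeq2's Wald test called 3 members (Kcna6, Kcnj8 and Kcnmb1) among 757 genes, and limma voom 8 among 1090 genes. With either input left out, 3 members in all had an unadjusted p under 0.05, and with limma voom 26 had. The share of all genes at that limit was not counted in these alternative fits. The fold change was above 0 for 25 of 70 members (35.7%), against 53.0% of all genes, with a median log2 fold change of -0.23 against 0.07. With all 8 immunopurified libraries beyond both inputs as a criterion, 0 of 70 members lay above (3.24% of all genes) and 6 below (8.57%, against 4.36% of all genes), namely Kcna6, Kcnh7, Kcnj3, Kcnk1, Kcnt2 and Kcnu1. Kcnu1 passed the filter on low counts only through the inputs, and Kcnj8, Kcnmb1 and Kcnq1 only through immunopurified libraries. The directions of these genes were thus partly set by that filter. Over all 24 immunopurified libraries 0 members lay above both inputs (0.522% of all genes) and 1 below (1.43%, against 0.924%), which was Kcna6.

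Among voltage-gated subunits, Kcna6 stood furthest below input for its error. It is a member of the same family as Kcna1 and lies beside it on chromosome 6. Its level was 88.8, 45.3, 21.2, 26.9 and 13.7 CPM in the nonescalating and 61.5, 35.2 and 73.8 CPM in the saline immunopurified libraries, against 282 and 141 CPM in the nonescalating and saline inputs. Each immunopurified library, withdrawal and escalating ones included, was below both inputs, and the highest of the 24 was 114 CPM. The log2 fold change was -2.20 (SE 0.57, adjusted p = 0.115 by edgeR's quasi-likelihood test and Benjamini-Hochberg adjustment). With all 24 immunopurified libraries in the fit it was -1.88 with an adjusted p of 0.0281, a call that the fit of 8 libraries did not make. Without the nonescalating input the value was -1.31. An annotated gene on the opposite strand overlaps its exons, and the counts are not stated to use strand.

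The other voltage-gated subunits of the highest levels lay near input. The 8 immunopurified libraries ran from 62.3 to 482 CPM (median 334) for Kcna1, against 348 and 425 CPM in the nonescalating and saline inputs, and the groups overlapped. Kcna2 had a log2 fold change of -0.35 (SE 0.47), Kcna4 -0.22 (SE 0.60) and Kcnd2 -0.21 (SE 0.60). Kcnq3 and Kcnq5, subunits of M-current channels, stood at -0.05 (SE 0.66) and -0.45 (SE 0.49). With such errors a change of less than about 1 log2 unit could not be told from 0.

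Kcnc1 and Kcnc2 form the high-threshold channels that let interneurons fire at high rates, and both had means below input without reaching an unadjusted p of 0.05. Kcnc1 averaged 130 ± 54.7 CPM in the 8 immunopurified libraries and 238 CPM in the 2 inputs, with 7 of 8 libraries below both inputs and a log2 fold change of -0.85 (SE 0.47). Kcnc2 averaged 18.1 ± 18 CPM in the 8 immunopurified libraries, against an input mean of 55.5 CPM (log2 fold change -1.69, SE 1.12), with 6 of 8 below both. Of 6 markers of GABA interneurons (Pvalb, Sst, Npy, Nos1, Lhx6 and Kit) all had a fold change below 0, with a median of -2.42 and a summed level of 71.1 to 334 CPM in the 8 immunopurified libraries, against 732 and 444 CPM in the nonescalating and saline inputs. Their part in the values of Kcnc1 and Kcnc2 was not tested.

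The inward rectifiers differed among themselves. Kcnj4 was at 57.9, 22.8, 128, 5.60 and 58.0 CPM in the nonescalating and 124, 49.9 and 57.2 CPM in the saline immunopurified libraries, against 20.4 and 32.7 CPM in the nonescalating and saline inputs. Thus 6 of 8 libraries lay above both inputs and 1, nonescalating replicate 4, below them, and the log2 fold change was 1.35 (SE 0.86, unadjusted p = 0.136 by edgeR's quasi-likelihood test). Kcnj2 stood at 0.37 (SE 0.58). Kcnj3, a subunit of the channels opened by G proteins, averaged 12.6 ± 12.5 CPM in the 8 immunopurified libraries and 38.5 CPM in the inputs (fold change -2.47 in log2 units, SE 1.17), and all 8 lay below both inputs, but of all 24 libraries 3 were above both. Without the saline input its value was -1.02. Its partner subunits Kcnj6 and Kcnj9 were at -0.98 (SE 1.30) and -0.21 (SE 0.94).

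Kcnj8, the pore of the ATP-sensitive channel of vascular muscle and pericytes, had the highest fold change for its error among the members. Its level was 60.1, 31.9, 0.966, 19.4 and 23.9 CPM in the nonescalating and 14.3, 4.60 and 33.4 CPM in the saline immunopurified libraries, against 0.389 and 1.004 CPM in the nonescalating and saline inputs. In 7 of the 8 libraries it was above both inputs, and its log2 fold change was 5.05 (SE 1.60, adjusted p = 0.236 by edgeR's quasi-likelihood test and Benjamini-Hochberg adjustment). The other 5 pericyte and smooth muscle markers (Rgs5, Pdgfrb, Abcc9, Acta2 and Myh11) all had fold changes above 0 too. Their summed level was 604 to 4822 CPM in the 8 immunopurified libraries, against 106 and 146 CPM in the nonescalating and saline inputs, and Myh11 was at 0 in the saline input. Markers of endothelium (Cldn5, Pecam1, Flt1, Tek and Slco1a4) lay above input as well, 5 of 5 with an unadjusted p under 0.05 and 0 past the adjusted test (median log2 fold change 4.16), and their sum was 673 to 4420 CPM in the 8 immunopurified libraries, against 84.7 and 247.5 CPM in the nonescalating and saline inputs. Of the mural markers, Rgs5 and Myh11 passed, with log2 fold changes of 4.25 and 9.75 and adjusted p of 0.0395 and 0.00452 by edgeR's quasi-likelihood test. Abcc9, which encodes the sulfonylurea receptor that joins Kcnj8, stood at 4.29 (SE 1.04, adjusted p = 0.0837). Kcnj11, the pore of the neuronal ATP-sensitive channel, was at 0.33 (SE 0.98) and its receptor Abcc8 at -1.97 (SE 1.001).

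The beta subunit Kcnmb1, known from smooth muscle, where it makes the large calcium-activated channel more sensitive to calcium, was at 0.234, 51.1, 3.22, 20.9 and 20 CPM in the nonescalating and 65.9, 1.89 and 43.5 CPM in the saline immunopurified libraries, against 2.08 and 0 CPM in the nonescalating and saline inputs. These values run from near 0 to over 50 CPM within a group, and 6 of 8 were above both inputs (log2 fold change 4.39, SE 1.95). Kcnma1, the pore of this channel, was at -0.25 (SE 0.44), and its neuronal beta subunit Kcnmb4 at -0.61 (SE 1.71). In the 8 libraries tested, the summed level of the 5 markers was 2957, 3231, 604, 2272 and 1564 CPM (nonescalating) and 4822, 810 and 2775 CPM (saline). The highest sum went with the highest Kcnmb1 value, 65.9 CPM, and the lowest sum with 3.22 CPM. Nonescalating replicate 1, with a sum of 2957 CPM and 0.234 CPM of Kcnmb1, went the other way. In the withdrawal groups, the sum was 1026 to 3694 CPM in set 1 and 122 to 609.9 CPM in set 2, and Kcnj8 was 8.78 to 163 CPM in set 1 and 0 to 23.6 CPM in set 2. Between these sets Kcnmb1 did not follow the sums, with 0 to 9.25 CPM in set 1 and 0 to 13.65 CPM in set 2. Escalating replicate 1, with a sum of 4229 CPM, held 0.397 CPM of Kcnmb1 and 4.24 CPM of Kcnj8. The part of mural and endothelial RNA in the values of Kcnj8 and Kcnmb1 was not tested.

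**Figure D3:**
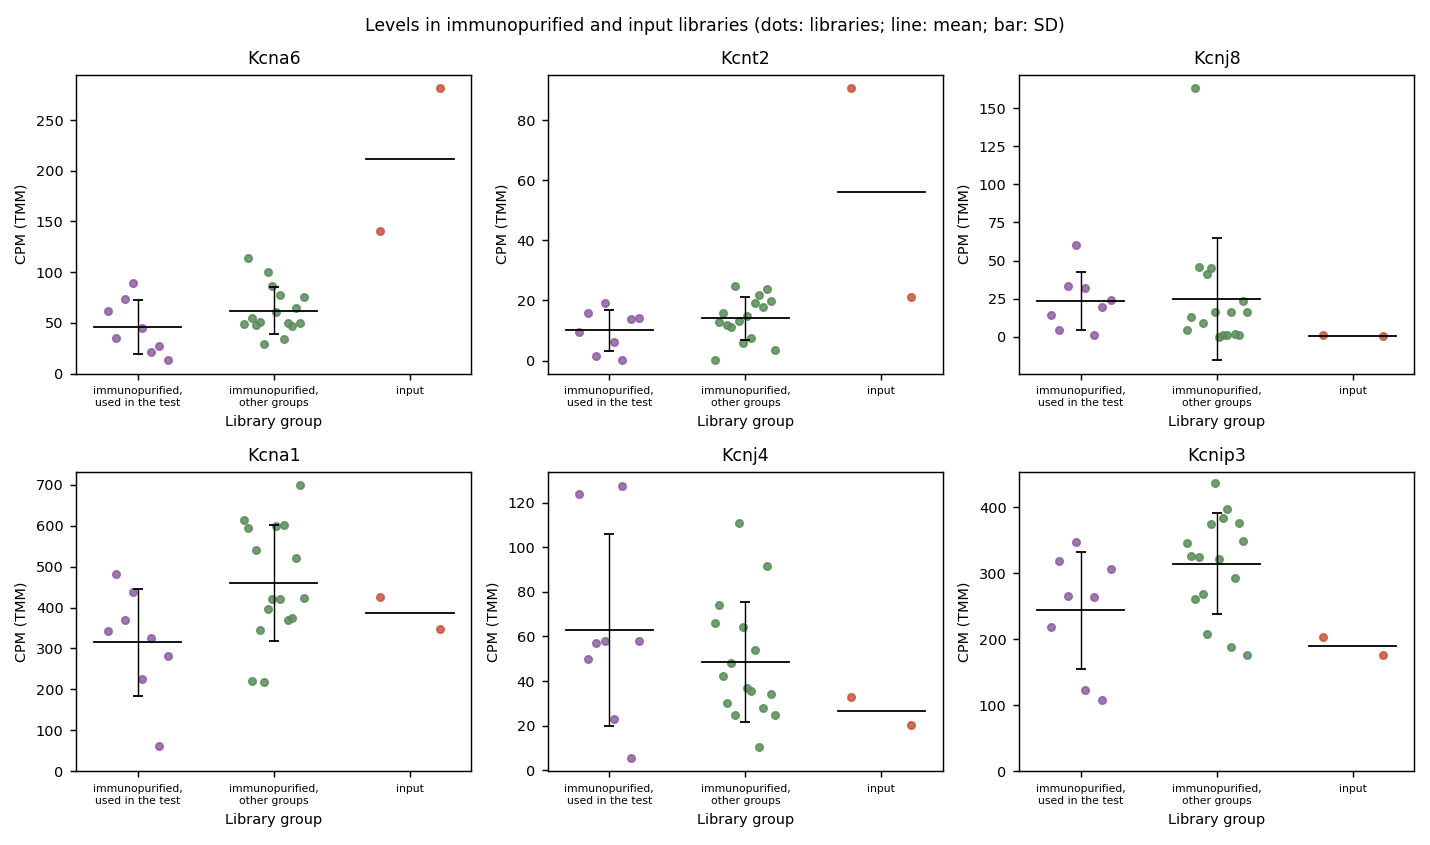
CPM of 6 members in the 8 immunopurified libraries tested against input, in the other 16 immunopurified libraries and in the 2 inputs (dots: libraries; lines: means; bars: SD). Kcna6 lies below both inputs in every immunopurified library, Kcnj8 above them in 7 of the 8 tested, and Kcna1 overlaps them.

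The means of 2 genes known from astrocytes were below input, by less than the test could separate from 0. Kcnj10, the main inward rectifier of these cells, averaged 73.4 ± 60.9 CPM in the 8 immunopurified libraries and 112 CPM in the inputs (a difference of -0.69 on the log2 scale, SE 0.76), with 4 of 8 libraries below both inputs and 1 above. Its partner Kcnj16 averaged 2.70 ± 3.73 CPM in the 8 and 10.5 CPM in the inputs (-3.41 on the log2 scale, SE 1.92). Of 6 astrocyte markers (Aqp4, Gfap, Gja1, Aldh1l1, Slc1a3 and Slc1a2) 5 had a fold change below 0 and 0 were at 0 throughout, and their sum was 351 to 2444 CPM in the immunopurified libraries, against 2767 and 2450 CPM in the nonescalating and saline inputs. The highest Kcnj10 values, 181 and 134 CPM, came from nonescalating replicates 4 and 3, whose astrocyte sums were 2444 and 1992 CPM. Saline replicate 1, with a sum of 2166 CPM, held 26.8 CPM of Kcnj10. These sums mainly follow 1 gene, Slc1a2. It was at 2166 CPM in nonescalating replicate 4, 1879 CPM in nonescalating replicate 3 and 2089 CPM in saline replicate 1. The part of astrocyte RNA was not tested.

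Calcium- and sodium-activated channels and leak channels had medians of -1.06 on the log2 scale, over 7 members each. Kcnn3 (0.03, SE 0.55), Kcnt1 (-0.08, SE 0.57) and Kcnma1, the 3 highest of the activated channels, lay near 0. Kcnn2, which carries the current after single spikes, was at -1.68 (SE 0.90), and at -0.75 without the saline input. Kcnt2, a sodium-activated channel, was 0.322 to 19.2 CPM (median 11.7) in the 8 immunopurified libraries, against 21.3 and 90.7 CPM in the nonescalating and saline inputs. Its log2 fold change of -2.34 (SE 1.10) was -0.98 without the saline input. Kcnu1, known from sperm, had a count in 2 of the 8 libraries, with at most 1.46 CPM, against 3.36 and 4.82 CPM in the nonescalating and saline inputs (log2 fold change -4.65, SE 2.02). It passed the filter on low counts only through the inputs, so its place below them is no finding. Of the leak channels, Kcnk2 was at 0.24 (SE 0.66), Kcnk1 at -1.06 (SE 0.84) and Kcnk9, an acid-sensitive leak channel, at -1.81 (SE 1.25).

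The auxiliary subunits of high level lay near input. Kcnip3 was at 0.41 (SE 0.49), Kcnip2 at -0.07 (SE 0.61), Kcnab2 at 0.09 (SE 0.58) and Kcnab1 at -0.31 (SE 0.64). For Kcnip3, 20 of 24 immunopurified libraries lay above both inputs (177 and 203 CPM), and those of the 8 tested ran from 108 to 348 CPM. A list of 24 partners of potassium channels was set beside the members: 21 were tested, 6 had a fold change above 0 and 15 below (median -0.44), and only Abcc9 had an unadjusted p under 0.05. The list includes the Kcnd partners Dpp6 (-0.43, SE 0.56) and Dpp10 (-0.44, SE 0.73), and Cntnap2 (-0.47, SE 0.71), which gathers Kcna channels beside nodes of Ranvier.

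Kcnq1 and the noncoding RNA Kcnq1ot1 overlap on opposite strands, so their reads cannot be told apart without strand. Kcnq1 was listed at 0 in both inputs and had counts in 5 of the 8 immunopurified libraries, but 92.8 CPM came from nonescalating replicate 1 and the other 7 held at most 5.60 CPM. Against the limit of 3 counts per input library, its mean was at least 36.1-fold higher in the immunopurified libraries, and at least 4.68-fold higher without nonescalating replicate 1. Kcnq1ot1, a long nuclear RNA that silences genes on the paternal chromosome, was 28.6 to 578 CPM (median 245) in the 8 immunopurified libraries, against 71.1 and 101 CPM in the nonescalating and saline inputs (log2 fold change 1.68, SE 0.92). Its level differed widely among libraries of 1 group. In the 6 immunopurified libraries with over 50% of their reads in no feature it ran from 272 to 578 CPM (median 397), and in the other 18 from 28.6 to 604 CPM (median 164). The part of such reads in its level was not tested.

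**Figure D4:**
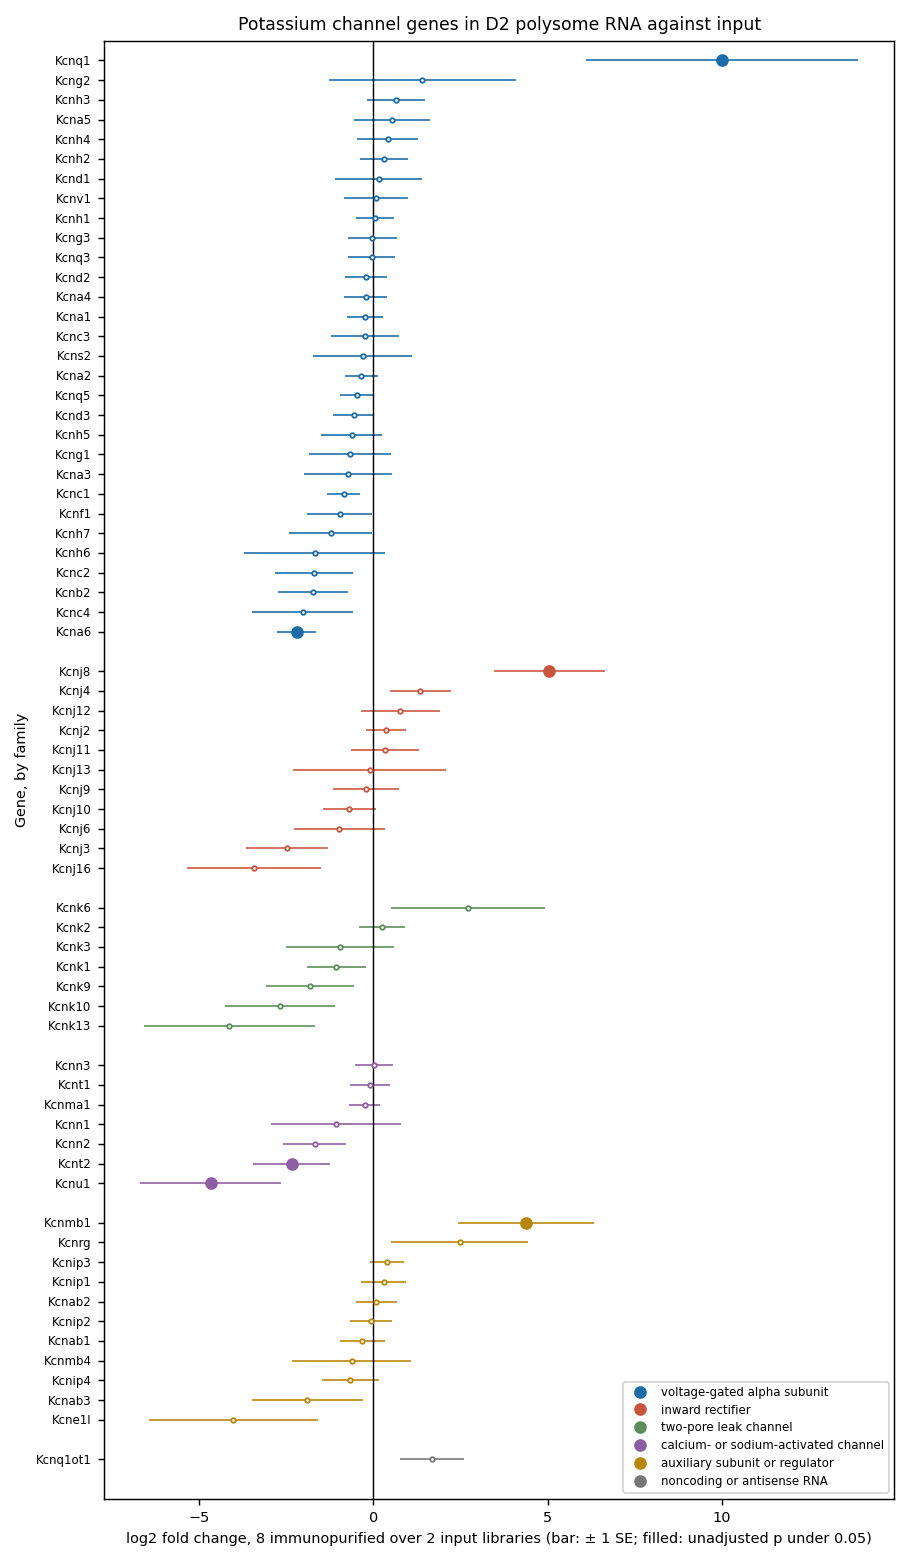
Log2 fold change of 67 of the 70 tested members in polysome RNA (8 immunopurified libraries) over input (2 libraries), by family, with bars of 1 SE; filled dots have an unadjusted p under 0.05. The 6 filled dots are Kcnj8, Kcnq1 and Kcnmb1 above 0 and Kcna6, Kcnu1 and Kcnt2 below it.

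The comparisons between groups ask whether cocaine, its pattern of intake or withdrawal goes with other levels of these genes on D2 polysomes. In the 2 escalating libraries Kcne4 was at 14.03 and 20.5 CPM, against at most 3.80 CPM in all others. Without these 2 libraries Kcne4 would not have passed the filter on low counts. Kcnn2, which forms small-conductance calcium-activated channels, was at 0.529 and 1.62 CPM in them, below every other immunopurified library. Kcnn1, of the same family, was at 0 in both, but was also low in the saline libraries, at 0, 1.06 and 1.22 CPM. Kcnk9, a leak channel, was at most 2.90 CPM in nonescalating and at least 3.67 CPM in saline libraries. All these genes were named for their small p, and the share of all genes without overlap between groups was not counted. The comparisons were fitted together over the 24 immunopurified libraries with library set as a term, and 73 of the 77 members were tested. No potassium channel gene passed an adjusted p of 0.05 in any of the 7 comparisons by edgeR's quasi-likelihood test and Benjamini-Hochberg adjustment, and neither did any of the 15854 genes tested (0.0%). DESeq2's Wald test called 1 member, Kcnk4, among 34 genes in nonescalating against saline libraries, and 1, Kcnmb1, among 143 genes in escalating against saline libraries. It called 3 members among 225 genes in escalating against nonescalating libraries, and 1, Kcnk4, among 30 genes in saline withdrawal against saline libraries. Limma voom called 1, Kcne4, among 8 genes in escalating against nonescalating libraries. The comparisons that follow share groups of libraries and are therefore not independent of each other.

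Nonescalating against saline libraries addresses cocaine intake without withdrawal if the titles, and not the second label, of the nonescalating libraries are right. At an unadjusted p under 0.05, 3 members were higher and 4 lower, against 3.54% and 3.19% of all genes, and the median log2 fold change was -0.11 against 0.01 over all genes. The count of 7 in all was 4 without saline replicate 1, and 2 without saline replicate 1, nonescalating replicate 4 and nonescalating withdrawal set 2 replicate 5 together, while DESeq2 gave 15 and limma voom 3. For these alternatives no share of all genes at this limit was counted. Kcnq5, a subunit of M-current channels, was at 124, 85.6, 71.2, 41.4 and 107 CPM in nonescalating and 119.7, 307 and 137 CPM in saline libraries. The groups overlap, since 1 saline library lies below the highest nonescalating one, and the log2 fold change was -1.16 (SE 0.42, adjusted p = 0.719 by edgeR's quasi-likelihood test and Benjamini-Hochberg adjustment). Its value was -0.57 without saline replicate 3, the library at 307 CPM. Kcnq3, another subunit of these channels, was at -0.33 (SE 0.54).

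The acid-sensitive leak channel Kcnk9 was at 0.703, 2.90, 0.322, 1.12 and 1.95 CPM in nonescalating and 48.2, 15.7 and 3.67 CPM in saline libraries. These ranges do not overlap, although 1 saline library is close to the highest nonescalating one (log2 fold change -4.06, SE 1.32, adjusted p = 0.719 by the same test). Without saline replicate 1 the value was -2.82. Kcnj3 was at 6.21, 33.7, 13.2, 6.34 and 30.2 CPM in nonescalating and 0, 5.43 and 5.51 CPM in saline libraries, again without overlap (log2 fold change 2.27, SE 0.95). Kcnk9 and Kcnj3 were named for their small p, and how many of all genes lack overlap here was not counted. Kcnn2 averaged 28.2 ± 29.4 CPM in nonescalating and 6.91 ± 3.33 CPM in saline libraries, and its log2 fold change of 2.0 (SE 0.93) was 1.18 without nonescalating replicate 3, at 78.9 CPM. The silent subunit Kcnv1, which forms channels only with other subunits, averaged 15 ± 12.7 CPM in nonescalating and 43.6 ± 7.81 CPM in saline libraries (log2 fold change -1.55, SE 0.64). The difference of Kcnq1 (6.20, SE 2.67) rested on the library at 92.8 CPM and was 3.18 without it, and 9.83 without saline replicate 4. Astrocyte markers had fold changes above 0 for 5 of 6 genes and oligodendrocyte markers for 6 of 6 (medians 0.67 and 1.12), and their part in these values was not tested.

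The 2 escalating libraries were set against the 3 saline and the 5 nonescalating ones. Against saline, 3 members were higher and 3 lower at an unadjusted p under 0.05 (3.17% and 4.93% of all genes), and against nonescalating libraries 7 were higher and 3 lower (3.44% and 5.31%). The 6 members against saline libraries became 3 without saline replicate 1 and 10 without saline replicate 3. Kcne4, a small membrane protein that damps voltage-gated channels, was at 14.03 and 20.5 CPM in the escalating libraries, at 0 to 0.373 CPM in the 5 nonescalating ones and at 0 in the 3 saline ones. No other immunopurified library exceeded 3.80 CPM, and both inputs were at 0. Against the limit of 3 counts per saline library this is at least 27.6-fold higher, and against the nonescalating libraries the log2 fold change was 6.79 (SE 2.20, adjusted p = 0.558 by edgeR's quasi-likelihood test and Benjamini-Hochberg adjustment). Kcne4 passed the filter on low counts only with the 2 escalating libraries, so the direction of its difference was partly set by that filter. The other 2 higher members against saline libraries were Kcnn4, the intermediate-conductance calcium-activated channel, and Kcnk13, a tandem-pore channel. Kcnn4 was at 0 and 7.81 CPM and Kcnk13 at 0 and 5.90 CPM in the escalating libraries, and both were at 0 in the 3 saline ones. Both values rest on escalating replicate 2, without which all libraries of this comparison are at 0.

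The small-conductance channels Kcnn1 and Kcnn2 were low in the escalating libraries. Kcnn2 was at 0.529 and 1.62 CPM in escalating libraries, against 16.9, 7.98, 78.9, 27.2 and 9.75 CPM in nonescalating and 8.78, 3.07 and 8.88 CPM in saline libraries. The escalating values lie below every other immunopurified library, with log2 fold changes of -4.70 (SE 1.31) against nonescalating and -2.70 (SE 1.21) against saline libraries (adjusted p = 0.558 and 0.614 by the same test). Kcnn1 was at 0 in both escalating libraries, against 5.86, 22.1, 16.1, 1.87 and 3.41 CPM in nonescalating libraries, which with the limit of 3 counts per escalating library is at least 34.7-fold lower. In saline libraries Kcnn1 was at 0, 1.06 and 1.22 CPM, so its level was at least 2.68-fold lower in escalating than in saline libraries by the same limit. Kcnn3, the member of this family with the highest level, was at -0.02 (SE 0.49) against nonescalating and -0.26 (SE 0.53) against saline libraries. Kcnmb1 was at 0.397 and 0 CPM in escalating libraries. The lowest saline library lies above them at 1.89 CPM and the lowest nonescalating one between them at 0.234 CPM, and the log2 fold changes were -7.28 (SE 2.55) against saline and -6.30 (SE 2.40) against nonescalating libraries, the second being -9.55 without escalating replicate 1.

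Kcna1, also named for its small p, was at 615 and 595 CPM in escalating libraries and at 437, 226, 325, 62.3 and 281 CPM in nonescalating ones. Its values did not overlap (log2 fold change 1.19, SE 0.43), and how many of all genes lack overlap here was not counted. Kcnq5 was at 277 and 171 CPM in escalating libraries, against 124 CPM in the highest nonescalating library (log2 fold change 1.38, SE 0.46). Kcnk2 and Kcnh1 followed with 1.33 (SE 0.53) and 1.13 (SE 0.47). Markers of D2 neurons were above 0 for 6 of 6 genes in this comparison (median 0.50), with sums of 6912 and 7066 CPM in escalating and 659 to 8409 CPM in nonescalating libraries, and their part was not tested. Of the 11 inward rectifiers tested, 10 had a fold change below 0 (median -1.28), against 54.5% of all genes (median -0.12), with unadjusted p above 0.05 for each. Markers of astrocytes and oligodendrocytes were below 0 for 6 of 6 genes each, with medians of -1.18 and -1.11. Their summed levels were 1054 and 1593 CPM (astrocyte) in escalating and 351 to 2444 CPM in nonescalating libraries, and their part was not tested. With 2 escalating libraries, the value of Kcnk9, at 0 and 27.7 CPM, rests on 1 of them.

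Nonescalating withdrawal against saline withdrawal addresses cocaine intake after withdrawal, with 8 libraries against 6. At an unadjusted p under 0.05, 3 members were higher and 0 lower, against 2.59% and 0.902% of all genes, and the median log2 fold change was 0.02 against 0.05. Kcnj16 was 0 to 13.8 CPM (median 2.11) in nonescalating withdrawal and 0 to 1.23 CPM (median 0.143) in saline withdrawal libraries (log2 fold change 3.39, SE 1.54). Kcne1l, a regulator of the Kcne family, had counts in 2 of 8 nonescalating withdrawal libraries, at 2.97 and 10.96 CPM, and in 0 of 6 saline withdrawal libraries, which is at least 1.75-fold higher against the limit of 3 counts per library. That bound rests on the library at 10.96 CPM, nonescalating withdrawal set 2 replicate 2, without which the mean of 0.425 CPM is below the limit of 0.998 CPM. Kcne1l also passed the filter on low counts only with its nonescalating withdrawal libraries. The count of 3 members was 1 without nonescalating withdrawal set 1 replicate 1. Both genes had an adjusted p of 1.0 by edgeR's quasi-likelihood test and Benjamini-Hochberg adjustment.

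For genes of high level the groups overlapped widely. Kcna1 was 219 to 698 CPM (median 409) in nonescalating withdrawal and 221 to 602 CPM (median 481) in saline withdrawal libraries. Kcnk2 was 74.0 to 179.6 CPM (median 107) in nonescalating withdrawal and 73.9 to 278 CPM (median 164) in saline withdrawal libraries, with a log2 fold change of -0.66 (SE 0.36), and Kcnd3, a pore of the transient current, -0.52 (SE 0.35). Within library set 1 and within set 2, 0 potassium channel genes passed the adjusted test, and 0 and 4 had an unadjusted p under 0.05. The share of all genes at this limit was not counted in these fits, so the 4 are not a result about the members.

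**Figure D5:**
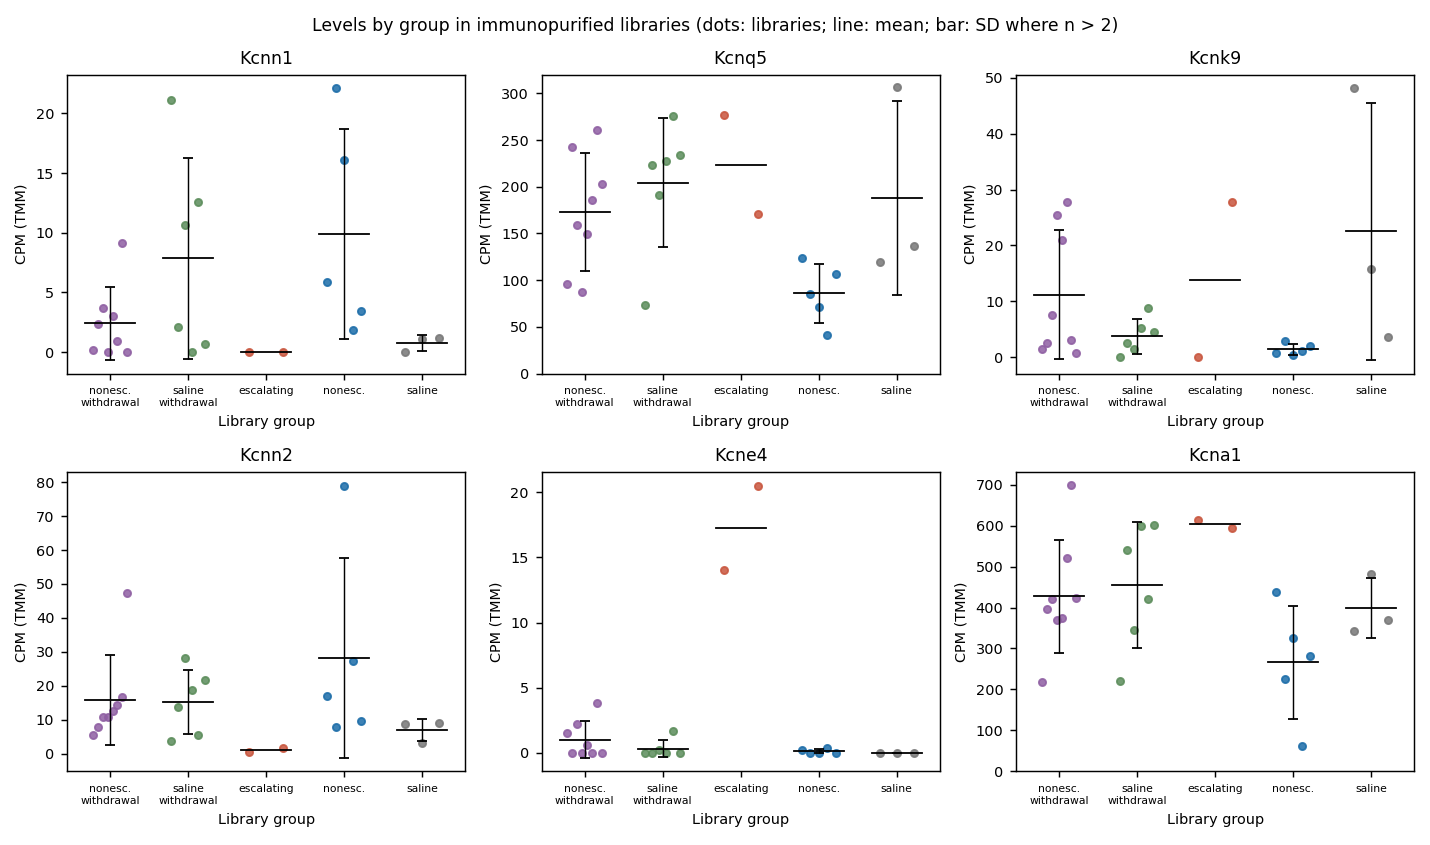
CPM of 6 members in the immunopurified libraries by group (dots: libraries; lines: means; bars: SD where n is above 2). Kcnk9 is at most 2.90 CPM in the nonescalating libraries, Kcne4 is above 10 CPM in the 2 escalating libraries only, and Kcnn2 is lowest in those 2.

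Saline withdrawal against saline libraries and nonescalating withdrawal against nonescalating libraries address withdrawal itself, the second only if the titles of the nonescalating libraries are right. In saline-taking mice, 1 member was higher and 4 lower at an unadjusted p under 0.05 (2.67% and 3.97% of all genes), and the count of 5 became 0 when saline replicate 1 was left out, 11 when saline replicate 3 was, and 3 when saline withdrawal set 2 replicate 1 was. Kcnk9 was 0 to 8.74 CPM (median 3.46) in saline withdrawal libraries, against 48.2, 15.7 and 3.67 CPM in saline libraries (log2 fold change -4.03, SE 1.33). Kcnj3 was 2.88 to 36.3 CPM (median 19.3) in saline withdrawal libraries, against 0, 5.43 and 5.51 CPM in saline ones (log2 fold change 2.43, SE 0.97). Kcnk6, a tandem-pore channel, was 0 to 1.90 CPM (median 0) in saline withdrawal libraries, against 15.8, 0.826 and 1.84 CPM in saline ones (log2 fold change -3.72, SE 1.67), and its value was -1.47 without saline replicate 1 and -6.29 without saline withdrawal set 1 replicate 2. For all 3 genes the ranges overlap, and the 3 saline libraries are those that nonescalating libraries were set against. Astrocyte markers lay below 0 for 5 of 6 genes (median -1.08), with sums of 368 to 1106 CPM in saline withdrawal and 937 to 2166 CPM in saline libraries, and microglia markers for 4 of 4 (median -2.81). In cocaine-taking mice, 1 member was higher and 1 lower (1.2% and 1.58% of all genes), a count of 2 that ran from 0 without nonescalating withdrawal set 1 replicate 2 to 5 without nonescalating replicate 1, and was 1 without nonescalating replicate 2, 3 or 4, nonescalating withdrawal set 1 replicate 1 or nonescalating withdrawal set 2 replicate 4. Kcnq5 was 87.0 to 261 CPM (median 173) in nonescalating withdrawal libraries, against 41.4 to 124 CPM in nonescalating ones (log2 fold change 0.78, SE 0.38, and 0.50 without nonescalating withdrawal set 1 replicate 2). Kcnmb1 was 0 to 9.25 CPM (median 0.801) in nonescalating withdrawal libraries, against 0.234 to 51.1 CPM in nonescalating ones (log2 fold change -2.75, SE 1.30). Astrocyte markers lay below 0 for 6 of 6 genes (median -1.0) and microglia markers for 4 of 4 (median -2.93). The part of these markers in the values of the channels was not tested.

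With the groups as titled, the difference between the 2 cocaine effects, with and without withdrawal, was tested as such. At an unadjusted p under 0.05, 3 members were higher and 3 lower (2.66% and 2.24% of all genes), and the count of 6 was 2 without saline replicate 1. Kcnk9 had the smallest p, with a difference of 5.43 on the log2 scale (SE 1.64, adjusted p = 0.972 by edgeR's quasi-likelihood test and Benjamini-Hochberg adjustment). Its levels were 0.729 to 27.7 CPM (median 5.31) in nonescalating withdrawal and 0 to 8.74 CPM in saline withdrawal libraries, against the nonescalating and saline values given above. Kcnv1 had a difference of 1.93 (SE 0.82), and averaged 50.2 ± 21.5 CPM in nonescalating withdrawal and 34.1 ± 14.4 CPM in saline withdrawal libraries. Kcnh5, a voltage-gated subunit of the ether-a-go-go family, had a difference of -1.68 (SE 0.80). Kcnn1 had one of -5.18 (SE 2.23), with 0 to 9.12 CPM in nonescalating withdrawal and 0 to 21.1 CPM in saline withdrawal libraries. The difference of -7.51 (SE 3.17) for Kcnq1 was -4.47 without nonescalating replicate 1, at 92.8 CPM, -4.79 without saline withdrawal set 1 replicate 1, at 23.02 CPM, and -11.14 without saline replicate 4, at 0.918 CPM.

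The list of 24 channel partners was fitted in the same comparisons. Of 21 partners tested, 5 were above 0 and 16 below in nonescalating against saline libraries (median -0.23), and 15 above and 6 below in escalating against nonescalating libraries (median 0.27). The 1 partner with an unadjusted p under 0.05 in 4 of the 7 comparisons was Lrrc55, an auxiliary subunit of the large calcium-activated channel. Its log2 fold change was 3.25 (SE 1.18) in nonescalating against saline and -3.23 (SE 1.40) in escalating against nonescalating libraries. Lrrc55 was at 1.29, 1.09, 69.9, 10.1 and 26.8 CPM in nonescalating, 2.14, 2.01 and 2.45 CPM in saline and 1.32 and 3.24 CPM in escalating libraries. The nonescalating values thus lie on both sides of the other groups. Lrrc55 was picked from the list for its small p, and these comparisons share libraries. Ank3, the ankyrin that holds channels at the axon initial segment, was at -0.69 (SE 0.32) in nonescalating against saline libraries. No partner passed the adjusted test.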

How the data were processed

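Each of the 26 libraries came with a table of raw counts per gene as deposited by the authors, made with STAR 2.0.0e and HTSeq on build mm10, per the submitters' processing notes; the annotation, the HTSeq version and whether strand was used are not stated in the labels or headers. The 5 summary rows of each table were left out (reads in no feature were 29.7% to 62.5% of an immunopurified library's reads), and the 31735 genes common to both library sets, which hold at least 99.0% of the counts in genes, were used. From these counts, levels were computed as CPM with TMM factors over all 26 libraries, per kilobase of the union of exons in GENCODE M21 where genes were compared.

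Tests used edgeR 4.0.16 in R 4.3.3 (TMM, minimum count 10 in its expression filter, robust quasi-likelihood fit, Benjamini-Hochberg adjustment over all genes tested, threshold 0.05), and were tested on simulated data. Polysome RNA was compared with input with agent as a term, the groups with library set as a term. Alternatives were DESeq2 1.42.0, limma 3.58.1 (voom with quality weights), median-of-ratios scaling, 2 other filters, other sets of libraries, the replicate number as a block and each library left out in turn. Groups follow the titles; no same-group libraries of the 57 pairs agreed within sampling noise (lowest chi-square per degree of freedom 19.0). Counting limits cover counting error only.

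The members and lists were chosen with earlier results of these data known. Genes named were those with the smallest p in each direction (5 for polysome RNA against input, 3 for each comparison between groups), the 10 highest per kilobase and a list by role; Kcnc1, Kcnh1, Kcnh5, Kcnh7, Kcnj6, Kcnj9, Kcnj11, Kcnj16 against input, Kcnk1, Kcnk9 against input, Kcnmb4, Kcns3, Kcnv1 and the members at the edge of the rule were added after their values were seen, as partners or contrasts. Some members and sequences are not reported here, and counts over the members include them.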

Additional observations from a re-analysis of the deposited data

Results flagged for a closer look

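In 11 of 60 combinations of a gene and a group of 4 to 10 libraries, the highest library stood apart from the others by Dixon's criterion. Its chance rate of about 1 of 20 groups holds for normally distributed values. CPM values are skewed and often 0, and a gene counted in a single library of a group always meets the criterion. Many of these genes were also named for a small p, so the 11 cannot be set against that rate. Among the nonescalating libraries, replicate 1 held 92.8 CPM of Kcnq1 (others 0 to 5.60), replicate 3 78.9 CPM of Kcnn2 (others 7.98 to 27.2) and replicate 5 1.46 CPM of Kcnu1 (others 0). In nonescalating withdrawal libraries of set 2, replicate 1 held 9.93 CPM of Kcnq1 (others 0 to 1.34), replicate 2 10.96 CPM of Kcne1l (others 0 to 2.97) and replicate 3 163 CPM of Kcnd3 (others 45.3 to 97.6). In the same set, replicate 4 held 9.12 CPM of Kcnn1 (others 0 to 3.69) and replicate 5 47.4 CPM of Kcnn2 (others 5.35 to 16.7). In saline withdrawal libraries, set 1 replicate 1 held 23.02 CPM of Kcnq1 (others 0 to 3.82). Set 1 replicate 2 held 1.90 CPM of Kcnk6 (others 0 to 0.191). Set 2 replicate 3 held 1.03 CPM of Kcnk4 (others 0 to 0.285). Of these genes Kcnd3 alone was above 20 CPM in every library of the group concerned.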

How the results depend on the processing

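Of 167 counts of potassium channel genes past the adjusted threshold under the alternatives, 159 were 0, as in the fits reported. DESeq2's Wald test called 3 among 757 genes in polysome RNA against input (Kcna6 -2.11, Kcnj8 5.15 and Kcnmb1 4.63 on the log2 scale). It called Kcnk4 among 34 genes in nonescalating against saline and Kcnmb1 among 143 genes in escalating against saline libraries. In escalating against nonescalating libraries it called Kcnmb1, Kcnn1 and Kcnn2 among 225 genes. In saline withdrawal against saline libraries it called Kcnk4 among 30 genes. Kcnk4 had a count in 1 of 5 nonescalating libraries, at 2.18 CPM, and in 2 of 6 saline withdrawal libraries, at most 1.03 CPM. It was at 0 in the 3 saline libraries, so both of its calls rest on few reads. Voom with quality weights called 8 among 1090 genes against input and 1 among 8 genes in escalating against nonescalating libraries. All 24 immunopurified libraries against input gave 1 among 150 genes, Kcna6. The cause of these differences was not tested. Leaving out single libraries gave 0 in every comparison. Of 1316 values of named genes, 1258 kept their direction and side of the threshold, 14 passed it, 40 changed sign and 4 came to 0.00 without a change of sign. The 4 were Kcnn4 and Kcnk13 in escalating against saline libraries without escalating replicate 2 (7.39 and 6.99 with it), and Kcnt1 and Kcnk2 in polysome RNA against input. Of 167 counts of members at an unadjusted p under 0.05, 126 were within 1.5 times of the count reported. These counts ran from 3 to 26 in polysome RNA against input (6 reported), 2 to 15 in nonescalating against saline (7), 2 to 10 in escalating against saline (6) and 5 to 14 in escalating against nonescalating libraries (10). They ran from 0 to 5 in nonescalating withdrawal against saline withdrawal (3), 0 to 11 in saline withdrawal against saline (5), 0 to 7 in nonescalating withdrawal against nonescalating libraries (2) and 2 to 8 for the difference of the cocaine effects (6). Under the alternatives the share of all genes at that limit was not counted. All sign changes were in polysome RNA against input, in 11 genes with a log2 fold change of at most 0.35 in size. Values were 0.00 for Kcnq3 by DESeq2 and by median-of-ratios scaling; and -0.26 for Kcnn3, -0.05 for Kcnk2 and -0.38 for Kcnab2 by voom. Without saline replicate 1, nonescalating replicate 4 and nonescalating withdrawal set 2 replicate 5, they were 0.06 for Kcnd2, 0.08 for Kcnip2, 0.16 for Kcnq3 and 0.11 for Kcna4. With all 24 immunopurified libraries they were 0.11 for Kcnip2, 0.22 for Kcnq3 and 0.00 for Kcnn3, and with the 16 of set 1 they were 0.09 for Kcnip2, 0.22 for Kcnq3 and -0.02 for Kcnn3. Over single libraries left out, values ran from -0.22 to 0.07 for Kcnq3, -0.59 to 0.10 for Kcna4, -0.23 to 0.29 for Kcnn3, -0.31 to 0.55 for Kcnab2, -0.24 to 0.08 for Kcnip2, -0.24 to 0.03 for Kcnt1 and -0.70 to 0.06 for Kcna2. Median-of-ratios scaling moved the median of all genes in escalating against nonescalating libraries to -0.26, against -0.12 with TMM.

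Libraries with the same replicate number were by the median somewhat more alike than others, though not in every pair. The correlation of their deviations from the group means ran from -0.208 to 0.358 over 25 pairs (median 0.114). Over 90 pairs with different numbers it ran from -0.366 to 0.315 (median -0.023), and 10 of 21 libraries correlated best with their own number. The fits reported hold no term for the replicate number. With the replicate block 0 members were called in any comparison. In polysome RNA against input the block gave 0.02 for Kcnd2, 0.28 for Kcnip2, 0.33 for Kcnq3, 0.05 for Kcnma1, 0.00 for Kcnn3 and 0.13 for Kcna1.

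With 2 inputs and groups of 2 to 8 libraries, fold changes under about 1 log2 unit were rarely separable from 0, and genes under 20 CPM, 39 of the 77 members, rest on few reads in the shallower libraries.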
